A study of Homo sapiens with 6 samples.

Results

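Among the genes of CAL-51 breast carcinoma cells, 10 were followed for their role in NF-kB signalling: the CXC chemokine genes CXCL1, CXCL2, CXCL3 and CXCL8, the induced gene TNFAIP2, the feedback inhibitor genes TNFAIP3, NFKBIA and NFKBIE, and the subunit genes NFKB2 and RELB. They were chosen by name, as chemokines of the secretory senescence type and as subunits or feedback genes of NF-kB, out of 22794 listed genes. Earlier results of these data were known when they were chosen. All 10 were found once and all 10 passed the filter on low values, a mean of at least 10 normalized counts over the 6 libraries, which left 15950 genes for testing. CAL-51 is an established human breast carcinoma line, and poly(A) RNA was sequenced from cells given a p27-mVenus reporter plasmid and then sorted. The 2 groups were p27-positive cells and p27-negative cells, with 3 libraries each, and both had been through the transfection. p27, the product of CDKN1B, inhibits cyclin-dependent kinases.

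The groups are limited as a model in several ways. They come from 1 line, mock-transfected cells were not analysed here, and what the plasmid does to the cells cannot be told apart from a difference in p27 state. Separate cultures are not stated in the labels. The p-values then speak of the spread among these libraries only, and that spread may be technical. Depth was 23297719 to 26735554 reads assigned to listed genes in p27-positive libraries and 22216934 to 28609257 in p27-negative libraries. MKI67, the gene of the proliferation antigen Ki-67, had 6153 ± 170 normalized counts in p27-positive cells, against 21160 ± 410 in p27-negative cells (SD, n = 3 each). CDKN1B itself had 1295 ± 75.4 normalized counts in p27-positive cells, against 1659 ± 153 in p27-negative cells. The CDKN1B transcript was thus lower in p27-positive cells (log2 fold change -0.35 ± 0.07), and transcripts of the reporter and p27 protein were not analysed here.

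NF-kB is a family of dimeric transcription factors. In resting cells its dimers are held in the cytoplasm by IkB proteins such as the products of NFKBIA and NFKBIE. Signals from cytokine and pattern-recognition receptors activate the IKK kinases, which mark IkB for degradation, and freed dimers then enter the nucleus and bind kB sites. Among the genes that NF-kB induces are its own brakes: NFKBIA, which makes IkBalpha, and TNFAIP3, which makes the ubiquitin-editing enzyme A20. In the noncanonical branch the kinase NIK leads to processing of the NFKB2 precursor, whose product pairs with RELB. CXCL1, CXCL2, CXCL3 and CXCL8 are secreted chemokines that attract neutrophils through the receptor CXCR2, and they are well known as secreted products of inflamed, senescent and carcinoma cells.

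The kB-type sites of the chemokine promoters are shown because these genes are the textbook case of a shared NF-kB site. The sequences are from RefSeq (GRCh38.p14), read 5′ to 3′ on the strand of the gene, and the capitals mark the GGAATTTCC match. The places are chr4:73869305-73869333 on the plus strand for CXCL1, chr4:74099254-74099282 on the minus strand for CXCL2, chr4:74038749-74038777 on the minus strand for CXCL3 and chr4:73740468-73740496 on the plus strand for CXCL8.
CXCL1: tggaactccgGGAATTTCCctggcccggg
CXCL2: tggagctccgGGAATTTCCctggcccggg
CXCL3: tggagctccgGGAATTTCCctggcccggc
CXCL8: tgcaaatcgtGGAATTTCCtctgacataa
Of these 29 bases, CXCL1 and CXCL2 shared 28, CXCL2 and CXCL3 shared 28, and CXCL1 and CXCL3 shared 27. CXCL8 shared 17 bases with CXCL1 and 16 with either of the others. The match began at position -78 from the RefSeq start in CXCL1 and CXCL3, -77 in CXCL2 and -91 in CXCL8.

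Stretches of the feedback genes, TNFAIP2 and NFKB2 are shown for contrast, since their kB-type matches differ in letters and in number. Here the capitals mark matches to the wider motif GGNNNTTCC on either strand. NFKBIA lies at chr14:35404812-35404840 on the minus strand, TNFAIP3 at chr6:137867186-137867219, TNFAIP2 at chr14:103123354-103123382 and NFKB2, before the second of its 3 listed starts, at chr10:102394461-102394489, all 3 on the plus strand.
NFKBIA: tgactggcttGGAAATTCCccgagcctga
TNFAIP3: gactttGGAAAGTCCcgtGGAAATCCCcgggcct
TNFAIP2: ctccgcccgcGGGTTTTCCgcggttgcgg
NFKB2: gaaacgtcatGGGAATTCCCccctccggg
The NFKBIA match is GGAATTTCC read on the other strand. The TNFAIP3 stretch holds 2 matches, both on the other strand, and the NFKB2 capitals are 2 overlapping matches, 1 on each strand.

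Longer stretches of CXCL8 and CXCL1 show how the sites lie relative to each other. They are the 100 bases of CXCL8 and the 150 bases of CXCL1 just before the start of the gene in the deposited table, chr4:73740419-73740518 and chr4:73869243-73869392, both on the plus strand. Capitals mark kB-type matches and, in CXCL8, the AP-1 type match TGACTCA.
CXCL8: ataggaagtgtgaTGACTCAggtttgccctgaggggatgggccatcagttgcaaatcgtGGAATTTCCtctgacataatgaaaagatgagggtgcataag
CXCL1: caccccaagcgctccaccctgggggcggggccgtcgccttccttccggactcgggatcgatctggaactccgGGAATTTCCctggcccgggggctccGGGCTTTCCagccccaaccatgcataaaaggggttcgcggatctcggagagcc
CXCL8 held 1 AP-1 type match at -137 and 1 kB-type match at -91. CXCL1, CXCL2 and CXCL3 held no AP-1 type match in their windows, and each had a further kB-type match, GGGCTTTCC, at -53.

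RefSeq windows of 250 bases before to 50 after a start were matched for 8 of the 10 genes. RELB and NFKBIE had none in the table. The RefSeq start is also the first base of the gene in the deposited table for CXCL1 and NFKBIA and for the first start of NFKB2. It lies 1 base inside the listed gene for CXCL2, 45 for TNFAIP3, 50 for CXCL8, 118 for CXCL3 and 1985 for TNFAIP2, and the other NFKB2 starts lie 468 and 1595 bases inside. The kB-type matches of CXCL3 and TNFAIP2 are therefore within the listed genes, as are those of NFKB2. The wider motif GGNNNTTCC, searched on both strands, was in 9 of the 10 windows of these 8 genes, against 20.1% of all 35116 windows. The narrower GGAATTTCC, a case of the wider one, was in 5 of the 10 windows, against 0.461% of all windows. Each of these 5 belonged to another gene, but CXCL1, CXCL2 and CXCL3 are paralogs with nearly the same site. TGANTCA, the AP-1 type motif, was in 1 of the 10 windows, against 7.71% of all windows. The genes were chosen for their role in NF-kB signalling, so these shares describe them and do not test them. A match is a description of letters and says nothing of whether a factor was bound in these cells. The narrower motif was in the windows of CXCL1, CXCL2, CXCL3, CXCL8 and NFKBIA and not in those of TNFAIP2, TNFAIP3 and NFKB2. A relation of the motif to the differences between the groups was not tested.

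**Figure D1:**
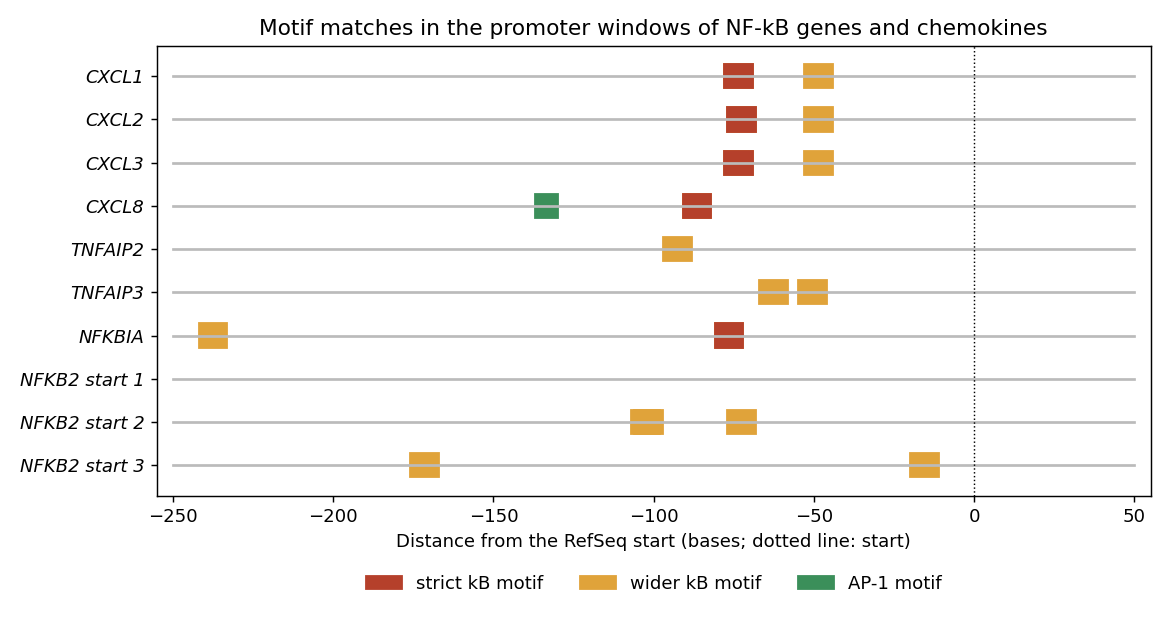
Positions of kB-type and AP-1 type matches in the RefSeq windows of 8 genes, by distance in bases from the RefSeq start (x axis), with 1 line per window. The narrower kB matches of CXCL1, CXCL2, CXCL3, CXCL8 and NFKBIA sit between -91 and -77.

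The comparison asked how transcripts of these genes differed between cells sorted for the p27 reporter. Values are normalized counts, the read counts of a gene divided by a size factor per library, and a log2 fold change is the mean log2(normalized count + 1) of p27-positive libraries less that of p27-negative ones. Adding 1 draws the log2 fold changes of low genes toward 0, but a mean of logs can still exceed the value of count-based tools. For CXCL2 it was 2.68, against 2.44 with edgeR and 2.45 with DESeq2. A gene was called at a Benjamini-Hochberg adjusted p under 0.05, from limma over all 15950 genes. All 4 chemokine genes, TNFAIP2, TNFAIP3 and NFKBIA were higher in p27-positive cells. NFKBIE was slightly lower under the authors' scaling, and NFKB2 and RELB did not pass. The count was thus 7 higher and 1 lower of 10, beside 25.5% higher and 27.1% lower over all genes tested. The median log2 fold change of the 10 was 0.88, beside 0.03 over all genes tested. The groups did not overlap, with p27-positive above, in 7 of the 10 genes, as they did in 28.5% of all genes tested. They did not overlap in the other direction in 1 of the 10 genes, beside 29.1% of all genes tested. Since the 10 were chosen with earlier results of these data known, these shares describe them and do not test them as a set. In bulk samples, a smaller share of cells with a transcript and less of it per cell cannot be told apart.

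**Figure D2:**
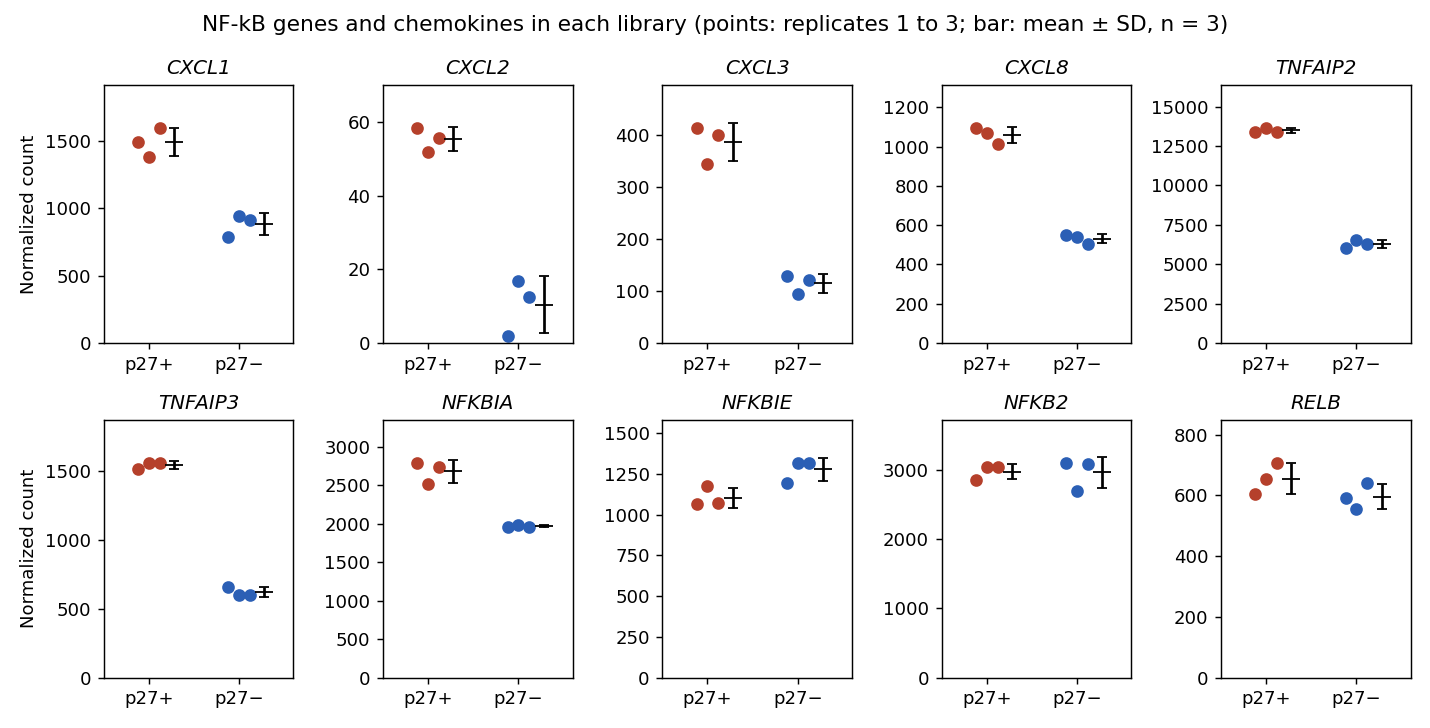
Normalized counts of each of the 10 genes in every library (points, linear axes from 0, 1 panel per gene), with p27-positive libraries left of p27-negative ones and bars for the mean ± SD (n = 3). The groups are apart in CXCL1, CXCL2, CXCL3, CXCL8, TNFAIP2, TNFAIP3, NFKBIA and, in the other direction, NFKBIE, and they overlap in NFKB2 and RELB.

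CXCL8 encodes interleukin-8, the best known neutrophil attractant of the family. It is listed as ENSG00000169429 at chr4:73740519-73743716 on the plus strand (hg38). It had 1095, 1071 and 1014 normalized counts in the p27-positive libraries, against 548, 540 and 506 in the p27-negative libraries. Every p27-positive library was well above every p27-negative one, and libraries within a group lay close together. The means were 1060.0 ± 41.6 in p27-positive and 531 ± 22.5 in p27-negative cells, a 2.0-fold ratio and a log2 fold change of 1.0 ± 0.09 (SE, adjusted p = 2.3e-12).

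CXCL1, first described as a melanoma growth-stimulating activity, was the most abundant of the 4 chemokine transcripts per length in both groups. It is listed as ENSG00000163739 at chr4:73869393-73871308 on the plus strand. Its normalized counts were 1493, 1382 and 1595 in p27-positive libraries, against 788, 940 and 916 in p27-negative libraries. The groups stood apart, although the p27-negative library of replicate 1 was below the other 2 of its group. The means of 1490 ± 106 in p27-positive and 881 ± 82.0 in p27-negative cells gave a 1.69-fold ratio, with a log2 fold change of 0.76 ± 0.08 (adjusted p = 1.3e-10).

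CXCL3 is a close paralog of CXCL1 with the same receptor. Listed as ENSG00000163734 at chr4:74036589-74038807 on the minus strand, it had 414, 345 and 400 normalized counts in p27-positive libraries, against 130, 94.6 and 121 in p27-negative libraries. The lowest p27-positive library was still far above the highest p27-negative one. CXCL3 averaged 387 ± 36.5 in p27-positive and 115 ± 18.4 in p27-negative cells, 3.36-fold higher, and its log2 fold change was 1.75 ± 0.18 (adjusted p = 3.3e-11).

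CXCL2, also called MIP-2alpha, was the least abundant chemokine of the 4. It is listed as ENSG00000081041 at chr4:74097040-74099196 on the minus strand and was read 58, 54 and 64 times in p27-positive libraries, against 2, 15 and 11 times in p27-negative libraries. In normalized counts this was 58.3, 51.8 and 55.6 in p27-positive libraries, against 1.78, 16.7 and 12.6 in p27-negative libraries. The p27-positive libraries agree closely, whereas the p27-negative library of replicate 1 was far below the others of its group. Means were 55.2 ± 3.28 in p27-positive and 10.3 ± 7.70 in p27-negative cells, a 5.34-fold ratio, with a log2 fold change of 2.68 ± 0.60 (adjusted p = 0.00023). Without p27-negative replicate 1 the log2 fold change was 1.86, so the size of the CXCL2 difference rests in part on that library. CXCL2 also lay under a mean of 100 normalized counts. Of all tested genes in that range, 20.6% were higher and 2.74% lower.

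The estimated rise was smallest for CXCL1 and largest for CXCL2. The 95% interval of the log2 fold change was 0.60 to 0.92 for CXCL1, 0.81 to 1.18 for CXCL8, 1.39 to 2.10 for CXCL3 and 1.46 to 3.91 for CXCL2. The intervals of CXCL1 and CXCL8 overlapped, as did those of CXCL3 and CXCL2, while the interval of CXCL3 lay above those of CXCL1 and CXCL8. Differences between these genes were not tested. Reads of the paralogs may in part be uncertain: of the 50-base words in the longest GENCODE v29 transcripts, 5.73% of CXCL1, 9.24% of CXCL2 and 5.26% of CXCL3 occurred in another of the 4 transcripts. No 100-base word was shared, and CXCL8 shared no 50-base word.

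FPKM is the read count per kilobase of a length set for each gene and per unit of depth. It allows levels of different genes to be set side by side, given those lengths. The lengths read back from the deposited values were 1362 bases for CXCL1, 1398 for CXCL2, 2219 for CXCL3 and 2588 for CXCL8. The longest GENCODE v29 transcripts had 1097, 1218, 1075 and 1705 bases, in the same order. Levels and shares set between genes rest on the lengths used, above all for CXCL3. Summed over the 4 chemokines, the level was 73.9 ± 3.30 FPKM in p27-positive and 35.8 ± 2.16 FPKM in p27-negative cells. CXCL1 supplied 63.7 ± 1.75% of that sum in p27-positive and 70.9 ± 2.46% in p27-negative cells. CXCL8 supplied 23.9 ± 1.79% in p27-positive and 22.6 ± 2.07% in p27-negative cells, with overlapping libraries. CXCL3 made up 10.1 ± 0.544% in p27-positive and 5.74 ± 1.21% in p27-negative cells. CXCL2 made up 2.30 ± 0.0804% in p27-positive and 0.789 ± 0.572% in p27-negative cells. The libraries of the groups did not overlap for the shares of CXCL1, CXCL2 and CXCL3. The mix therefore held relatively more CXCL3 and CXCL2 and relatively less CXCL1 in p27-positive cells, without a test of the shares.

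The 4 genes lie within 359 kb of chromosome 4, in a cluster with CXCL6 and CXCL5, which also bind CXCR2. CXCL6 was read 25, 16 and 24 times in p27-positive libraries, against 0, 12 and 7 times in p27-negative libraries. Its groups did not overlap, yet its adjusted p of 0.049 (log2 fold change 2.06 ± 0.89) lay at the threshold and was lost in 10 of the 16 alternative settings in which it was tested. Without p27-negative replicate 1 the log2 fold change of CXCL6 was 0.89, and without p27-negative replicate 2 it was 2.81. CXCL6, like CXCL2, lay under a mean of 100 normalized counts, where increases outnumber decreases over all genes. CXCL5 fell below the filter. With no filter on low values its adjusted p was 0.0045. It was read 8, 19 and 16 times in p27-positive libraries, against 1, 0 and 0 times in p27-negative libraries, a ratio of 45.1 in normalized counts with an exact 95% counting interval of 7.68 to 1824, which covers counting error only. CXCL10, an attractant of T cells that lies outside this cluster, was read 0, 5 and 10 times in p27-positive libraries, against 0 in all p27-negative libraries (adjusted p = 0.23 with no filter). MTHFD2L, a mitochondrial folate enzyme gene just beyond CXCL2, had 399 normalized counts in p27-positive, against 376 in p27-negative cells and did not pass (log2 fold change 0.09 ± 0.14, adjusted p = 0.63).

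TNFAIP2, also named B94, is induced by tumour necrosis factor and takes part in the formation of membrane nanotubes. It was by far the most abundant of the 10 and is listed as ENSG00000185215 at chr14:103121476-103137439 on the plus strand. It had 13418, 13652 and 13401 normalized counts in p27-positive libraries, against 6043, 6563 and 6291 in p27-negative libraries. The p27-positive libraries differed from each other by far less than the distance between the groups. The means were 13490.2 ± 140.06 in p27-positive and 6299 ± 260.3 in p27-negative cells, 2.14-fold higher, and the log2 fold change of 1.10 ± 0.04 had the smallest adjusted p of the 10 (3.8e-26). A long noncoding RNA on the opposite strand, LINC00677, overlaps TNFAIP2. It had 6.61 normalized counts in p27-positive, against 3.81 in p27-negative cells, a small total beside that of TNFAIP2.

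TNFAIP3 encodes A20, which edits ubiquitin chains on signalling proteins such as RIPK1 and so ends NF-kB activation. Listed as ENSG00000118503 at chr6:137867214-137883314 on the plus strand, it had 1512, 1558 and 1559 normalized counts in p27-positive libraries, against 659, 602 and 597 in p27-negative libraries. Libraries of a group lay close together and the groups were far apart. TNFAIP3 averaged 1543 ± 27.1 in p27-positive and 619 ± 34.6 in p27-negative cells, 2.49-fold higher, with a log2 fold change of 1.32 ± 0.08 (adjusted p = 1.8e-17). Its antisense neighbour WAKMAR2 overlaps it and was also higher, at 34.7 normalized counts in p27-positive, against 7.49 in p27-negative cells (log2 fold change 2.75, adjusted p = 0.0034). Whether reads were counted by strand is not given in the sources used here, so reads of the 2 cannot be told apart where they overlap.

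NFKBIA encodes IkBalpha, the inhibitor that is made anew soon after NF-kB is activated. It is listed as ENSG00000100906 at chr14:35401079-35404749 on the minus strand. NFKBIA had 2794, 2514 and 2734 normalized counts in p27-positive libraries, against 1964, 1985 and 1958 in p27-negative libraries. The p27-negative libraries were nearly equal, and all p27-positive libraries lay above them. The means were 2681 ± 147 in p27-positive and 1969 ± 14.4 in p27-negative cells, a 1.36-fold ratio that was the smallest among the 7 genes that rose (log2 fold change 0.44 ± 0.06, adjusted p = 1.6e-08).

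NFKBIE encodes IkBepsilon, an inhibitor that acts with slower kinetics than IkBalpha. It is listed as ENSG00000146232 at chr6:44258166-44265788 on the minus strand. Its normalized counts were 1065, 1175 and 1074 in p27-positive libraries, against 1194, 1319 and 1318 in p27-negative libraries. The groups came close to each other but did not overlap. Means were 1105 ± 61.1 in p27-positive and 1277 ± 71.8 in p27-negative cells, with a log2 fold change of -0.21 ± 0.08 (adjusted p = 0.019). That call was lost under 3 other scalings, with adjusted p-values of 0.24 to 0.40 and log2 fold changes of -0.11 to -0.08, and the libraries overlapped in FPKM (18.4 ± 1.15 in p27-positive and 19.5 ± 1.11 in p27-negative cells). It was also lost when either p27-positive replicate 1 or 3 or p27-negative replicate 2 or 3 was left out, with adjusted p-values of 0.064 to 0.073.

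NFKB2 encodes p100, the precursor of the subunit p52, and is listed as ENSG00000077150 at chr10:102394110-102402524 on the plus strand. It had 2847, 3039 and 3039 normalized counts in p27-positive libraries, against 3103, 2699.7 and 3082 in p27-negative libraries. The groups overlapped. NFKB2 averaged 2975 ± 111 in p27-positive and 2962 ± 227 in p27-negative cells, and its log2 fold change of 0.01 ± 0.06 did not pass (adjusted p = 0.91, 95% interval -0.10 to 0.12). Scaling to the library total gave 0.14 (adjusted p = 0.033) and quantile normalization 0.16 (adjusted p = 0.016).

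RELB encodes the subunit that pairs with p52. Listed as ENSG00000104856 at chr19:45001461-45038192 on the plus strand, it had 603, 654 and 708 normalized counts in p27-positive libraries, against 590.0, 556 and 639 in p27-negative libraries. The groups overlapped, since the lowest p27-positive library was below the highest p27-negative one. RELB averaged 655 ± 52.1 in p27-positive and 595 ± 41.7 in p27-negative cells and did not pass (log2 fold change 0.14 ± 0.10, adjusted p = 0.26, 95% interval -0.07 to 0.34). It passed as higher with scaling to the library total (0.27, adjusted p = 0.025), with upper-quartile rescaling (0.25, adjusted p = 0.038) and in the FPKM table (0.27, adjusted p = 0.033).

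**Figure D3:**
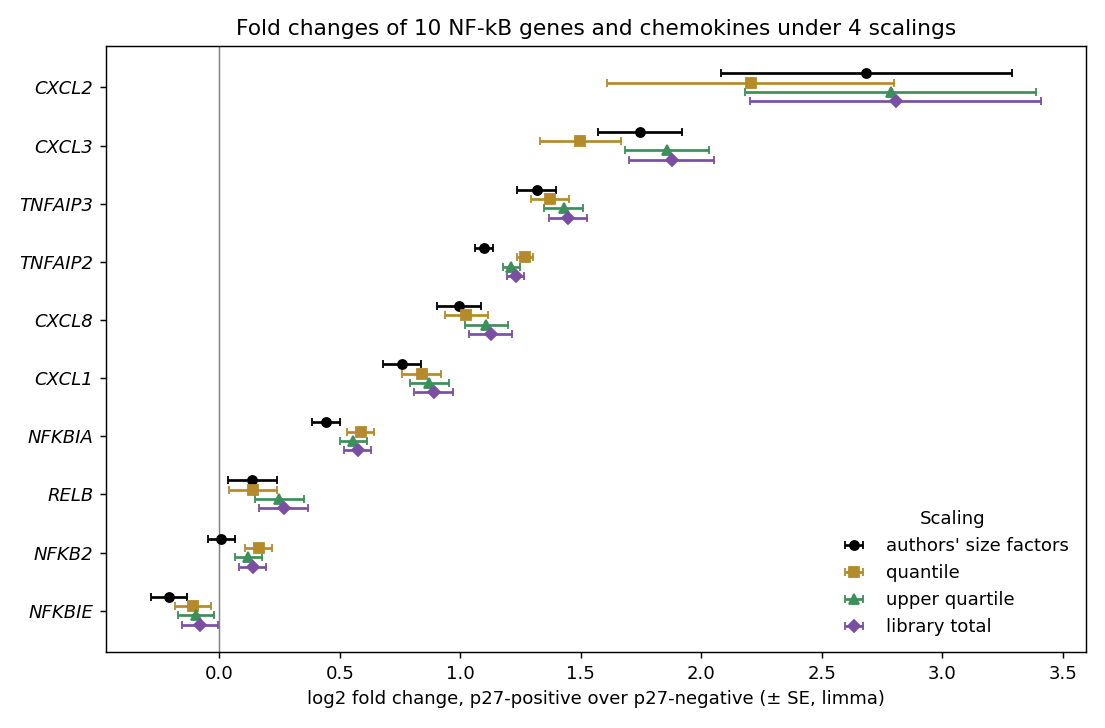
Log2 fold change (p27-positive over p27-negative) of the 10 genes ± SE from limma, under the authors' size factors, quantile normalization, upper-quartile rescaling and scaling to the library total. The 7 genes called higher stay above 0 under every scaling drawn, while NFKBIE lies between -0.21 and -0.08, NFKB2 between 0.01 and 0.16 and RELB between 0.14 and 0.27.

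Scaling mattered for the small differences. When libraries were scaled to their totals, the median of the log2 fold changes over all tested genes shifted by 0.13. There, 9 of the 10 genes were called higher and 0 lower, with a median of 1.01 beside 0.16 for all genes. Over all genes tested, that scaling called 33.5% higher and 19.5% lower. The log2 fold changes of CXCL1, CXCL2, CXCL3, CXCL8, TNFAIP2, TNFAIP3 and NFKBIA were larger than that shift. Those of NFKBIE (-0.209) and RELB (0.137) also exceeded it in size (0.129), yet their calls changed with scaling.

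Per length, TNFAIP2 led the 10 genes in both groups, with 115 ± 2.02 FPKM in p27-positive and 49.0 ± 2.0 FPKM in p27-negative cells. CXCL1 came next, with 47.1 ± 3.22 FPKM in p27-positive and 25.4 ± 2.38 FPKM in p27-negative cells. NFKBIA had 34.0 ± 1.62 FPKM in p27-positive and 22.8 ± 0.129 FPKM in p27-negative cells. The difference in rank between CXCL1 and NFKBIA was clear in p27-positive cells, whereas in p27-negative cells their libraries overlapped. NFKB2 had 22.9 ± 1.02 FPKM in p27-positive and 20.9 ± 1.63 FPKM in p27-negative cells, and its libraries overlapped with those of NFKBIE in p27-negative cells only.

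CXCL8 had 17.6 ± 0.650 FPKM in p27-positive and 8.07 ± 0.323 FPKM in p27-negative cells. Its libraries overlapped with those of NFKBIE in p27-positive cells and with those of RELB in p27-negative cells. RELB had 9.41 ± 0.791 FPKM in p27-positive and 7.81 ± 0.566 FPKM in p27-negative cells. TNFAIP3, at 10.3 ± 0.258 FPKM in p27-positive and 3.78 ± 0.208 FPKM in p27-negative cells, overlapped with RELB in p27-positive cells and lay below it in p27-negative cells. CXCL3, with 7.50 ± 0.654 FPKM in p27-positive and 2.04 ± 0.327 FPKM in p27-negative cells, came next. Its place rests on a length of 2219 bases, against 1075 in its longest GENCODE v29 transcript. CXCL2, with 1.70 ± 0.0874 FPKM in p27-positive and 0.291 ± 0.216 FPKM in p27-negative cells, closed the order. In p27-positive cells, the percentile among tested genes by FPKM was 98.6 for TNFAIP2, 95.1 for CXCL1, 83.8 for CXCL8 and 33.5 for CXCL2.

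**Figure D4:**
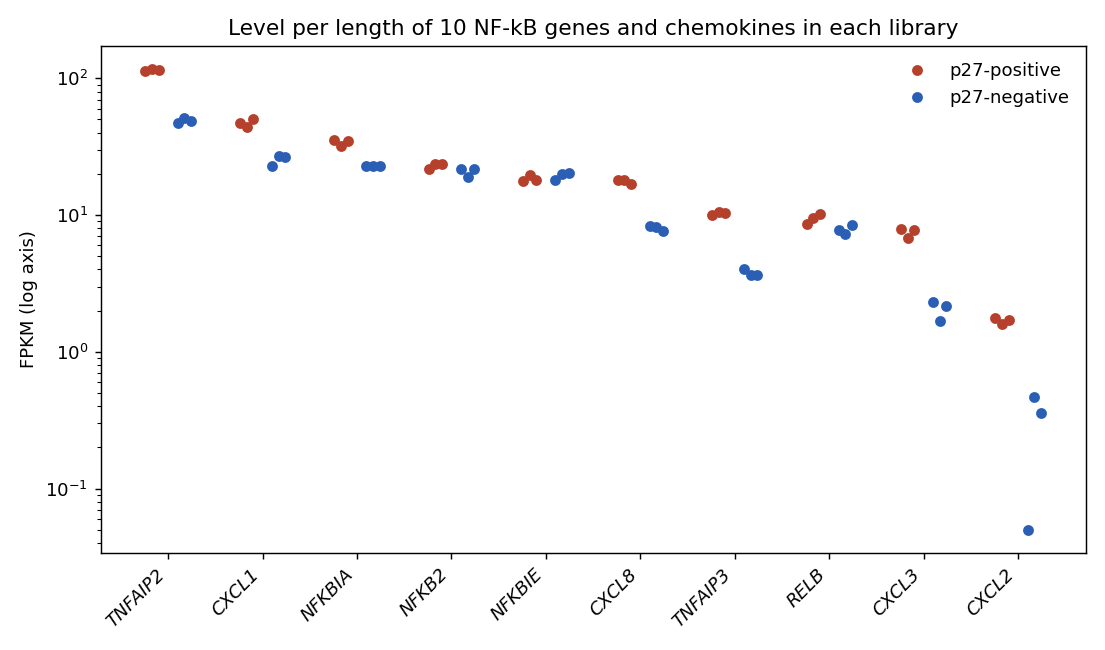
FPKM of each of the 10 genes in every library (y axis, log scale), with p27-positive libraries left of p27-negative ones for each gene. TNFAIP2 is highest in both groups and CXCL2 lowest, and TNFAIP3 stands below RELB in p27-negative cells only.

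The genes whose profile over the 6 libraries was most like that of CXCL8 were ITPR2, DECR1, ZNFX1, TRIM36 and RDH11. Likeness was the root mean square difference of centred log2(normalized count + 1), which was 0.0413 for ITPR2 and 0.0479 for RDH11. Their log2 fold changes lay between 0.96 (RDH11) and 1.06 (DECR1). With 2 groups of 3 libraries, such profiles share the contrast between the groups, and none of the 5 is an NF-kB gene of the lists below.

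The other genes of the pathway were taken from lists by role. Over 137 listed genes outside the 10, 102 were in the table and 92 were tested. Of these, 42 were higher, 18 lower and 32 did not pass, with a median log2 fold change of 0.16, or 0.29 with scaling to the library total. Over all genes tested, 25.5% were higher and 27.1% lower, shares to be set beside the count of each list below. The share called higher should also be read beside the level of a gene. Of the 4922 genes tested with a mean under 100 normalized counts, 20.6% were higher and 2.74% lower, with a median log2 fold change of 0.40, against 27.7% higher and 37.9% lower of the 11028 genes at or above 100.

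**Figure D5:**
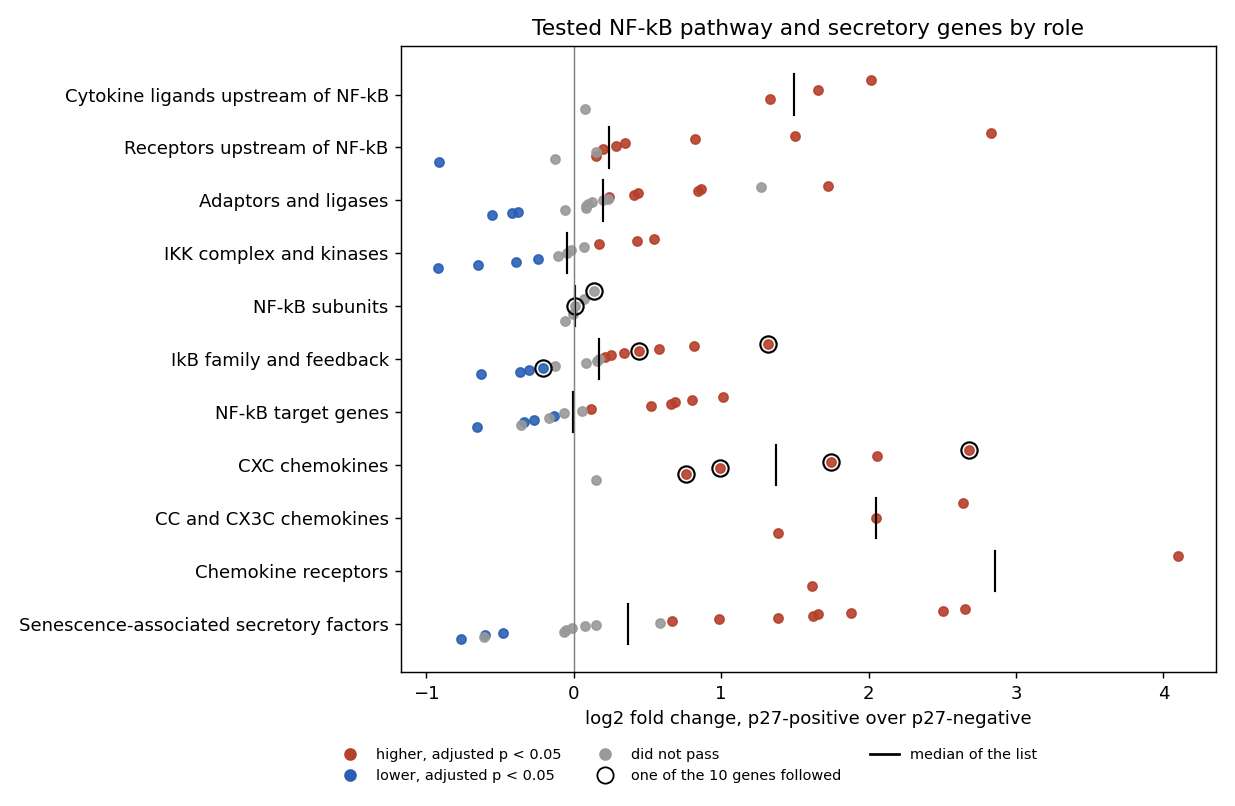
Log2 fold change (p27-positive over p27-negative) of the tested genes of each role, with a line at the median of each list and rings around those of the 10 genes that a list holds. Subunits lie near 0, IkB and kinase genes lie on both sides, and the tested cytokines, chemokines and chemokine receptors all lie to the right of 0. Many of these last have a mean under 100 normalized counts, where increases outnumber decreases over all genes. Some, CXCL6 and CXCR2 among them, passed the filter on low values only through p27-positive libraries.

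None of the subunit genes passed. RELA, the main transactivating subunit, had 1576 ± 49.3 normalized counts in p27-positive, against 1638 ± 40.0 in p27-negative cells (log2 fold change -0.06 ± 0.06, adjusted p = 0.49). NFKB1, the precursor of p50, had a log2 fold change of -0.01 ± 0.07 (adjusted p = 0.95), and REL had 0.07 ± 0.12 (adjusted p = 0.65). With NFKB2 and RELB this made 0 of 5 called, with a median of 0.01. Scaling to the library total called 2 of the 5 higher.

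IkB and feedback genes moved in both directions. Of 15 tested, 7 were higher, 4 lower and 4 did not pass, with a median log2 fold change of 0.17. TNIP1, which recruits A20 to ubiquitin chains, was higher at 4231 ± 251 normalized counts in p27-positive, against 2833 ± 110 in p27-negative cells (0.58 ± 0.05). NFKBID, a nuclear IkB protein, was higher by 0.82 ± 0.12. CYLD (0.25 ± 0.08) and ZC3H12A (0.34 ± 0.12), a deubiquitinase and an RNase that degrades cytokine transcripts, were higher by less, and both calls were lost without p27-positive replicate 1. TAX1BP1, an A20 partner, was higher by 0.21 ± 0.06.

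On the lower side, OTULIN, which cleaves linear ubiquitin chains, had 1953 ± 114 normalized counts in p27-positive, against 3014 ± 107 in p27-negative cells (log2 fold change -0.63 ± 0.06). NFKBIB, the gene of IkBbeta, had 1052 ± 22.9 in p27-positive and 1354 ± 26.3 in p27-negative cells (-0.36 ± 0.07). TNIP2 was lower by -0.30 ± 0.08, a call lost with scaling to the library total and in the FPKM table. NFKBIZ (0.17), BCL3 (0.08) and NLRC5 (0.16), and ITCH (-0.13), did not pass. Among the 3 classical IkB genes, the log2 fold change was thus above 0 for NFKBIA and below 0 for NFKBIB and NFKBIE.

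Of the 11 IKK and upstream kinase genes, 3 were higher and 4 lower. That is near the shares of all genes at or above 100 normalized counts, 27.7% higher and 37.9% lower. MAP3K14, which encodes the noncanonical kinase NIK, was lower at 1423 ± 74.6 normalized counts in p27-positive, against 2688 ± 91.3 in p27-negative cells (log2 fold change -0.92 ± 0.06). CHUK, the gene of IKKalpha, was lower by -0.65 ± 0.07, TAB2 by -0.39 ± 0.05 and MAP3K7, the gene of TAK1, by -0.24 ± 0.06, the last a call that was lost under all 4 other scalings, the FPKM table among them. MAP3K8, a kinase bound by p105, was higher by 0.55 ± 0.10 and IKBKE by 0.43 ± 0.08. IKBKB, the gene of IKKbeta, lay at the threshold (0.17 ± 0.07, adjusted p = 0.049) and its call was lost in 10 settings.

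Adaptors and ubiquitin ligases gave 6 higher and 3 lower of 17, beside 25.5% higher and 27.1% lower over all genes tested. Scaling to the library total called 12 higher and 3 lower, beside 33.5% higher and 19.5% lower over all genes tested. IRAK2, a kinase-like adaptor of the interleukin-1 receptor, was higher at 128 ± 9.90 normalized counts in p27-positive, against 38.9 ± 11.3 in p27-negative cells (1.72 ± 0.31), whereas IRAK1 was lower by -0.42 ± 0.03. TICAM1, the adaptor of TLR3, was higher by 0.86 ± 0.14 and RBCK1, a linear ubiquitin ligase subunit, by 0.41 ± 0.06. TRAF2 (-0.56 ± 0.08) and TRAF3 (-0.38 ± 0.05), which together restrain NIK, were lower. BIRC3, a ligase and itself an NF-kB target, was higher by 0.84 ± 0.26. That call was lost with quantile normalization, in the FPKM table and without p27-positive replicate 3.

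Of the 10 tested receptor genes, 7 were higher and 1 lower. TNFRSF10B, a death receptor that is also a p53 target, was higher by 0.82 ± 0.04, LTBR by 0.28 ± 0.05 and IL1R1 by 0.15 ± 0.04. TNFRSF12A, the receptor of TWEAK, was the 1 that fell, to 1174 ± 166 normalized counts in p27-positive cells against 2193 ± 31.0 in p27-negative cells (-0.91 ± 0.07).

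Cytokine ligands were few and low. TNF was read 108, 72 and 63 times in p27-positive libraries, against 15, 20 and 16 times in p27-negative libraries. No p27-negative library came near the lowest p27-positive one, and TNF was higher by 2.02 ± 0.43 (adjusted p = 0.00011). LTB and IL1B passed (1.33 ± 0.47 and 1.66 ± 0.61). The LTB call was lost in 8 settings, with 0.71 without p27-negative replicate 2, and that of IL1B in 4, among them the fits without p27-positive replicate 1, p27-positive replicate 2 and p27-negative replicate 2. IL1A did not pass (0.08 ± 0.41). TNF, LTB, IL1B and IL1A lay in the range under 100 normalized counts, where increases outnumber decreases over all genes.

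Of other chemokines, CCL20, which attracts cells through CCR6, had 77.3 ± 2.25 normalized counts in p27-positive, against 18.8 ± 7.26 in p27-negative cells (2.05 ± 0.42). CCL2, the monocyte attractant, was higher by 1.38 ± 0.38. CX3CL1 was higher by 2.64 ± 0.84, a value that was 1.5 without p27-negative replicate 1 and 3.44 without p27-negative replicate 3, and its call was lost without p27-positive replicate 2 or p27-negative replicate 1. CCL20 and CX3CL1 lay under a mean of 100 normalized counts, where increases outnumber decreases over all genes. CCL5 fell below the filter and was read 9, 12 and 29 times in p27-positive libraries, against 0 in all 3 p27-negative libraries (adjusted p = 0.0017 with no filter on low values). CXCL16, a membrane-bound chemokine, had 1256 ± 44.6 normalized counts in p27-positive, against 1131 ± 35.7 in p27-negative cells and did not pass (0.15 ± 0.07, adjusted p = 0.082). It passed as higher under all 4 other scalings.

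CXCR2, the receptor of the 4 chemokines, was read 49, 64 and 101 times in p27-positive libraries, against 18, 2 and 0 times in p27-negative libraries. The groups did not overlap, and libraries varied within both. CXCR2 averaged 66.1 ± 19.6 normalized counts in p27-positive, against 6.08 ± 8.68 in p27-negative cells (log2 fold change 4.10 ± 0.75, adjusted p = 1.3e-05). The log2 fold change was 5.18 without p27-negative replicate 1 and 3.14 without p27-negative replicate 3. CXCR2 passed the filter on low values only through its p27-positive libraries, so that it was tested at all is tied to the direction. ACKR2, a scavenging receptor of CC chemokines, was higher by 1.62 ± 0.58, a call lost without p27-positive replicate 3. CXCR2 and ACKR2 both lay under a mean of 100 normalized counts, where increases outnumber decreases over all genes. CCR7, a receptor of lymph node chemokines, was read 2, 3 and 9 times in p27-positive libraries, against 0 in all p27-negative libraries (adjusted p = 0.14 with no filter).

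Other well known NF-kB target genes did not move one way. Of 14 tested, 6 were higher, 4 lower and 4 did not pass, with a median log2 fold change of 0.00. The shares over all genes tested were 25.5% higher and 27.1% lower. SDC4, a heparan sulfate proteoglycan, was higher by 0.81 ± 0.03, PLAU, the gene of urokinase, by 0.66 ± 0.07, the caspase-8 regulator CFLAR by 0.69 ± 0.08 and CSF1, the macrophage growth factor, by 0.52 ± 0.05. The apoptosis inhibitor genes XIAP (-0.34 ± 0.04) and BCL2L1 (-0.27 ± 0.05) were lower, as were TNFAIP8 (-0.66 ± 0.22) and SOD2 (-0.13 ± 0.05). The calls of SOD2 and TNFAIP8 were lost in 10 and 4 settings, and that of BCL2L1 with quantile normalization (-0.11, adjusted p = 0.064). ICAM1, an adhesion molecule often used as an NF-kB readout, had 475 ± 24.6 normalized counts in p27-positive, against 459 ± 65.3 in p27-negative cells and did not pass (0.06 ± 0.12, adjusted p = 0.71).

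Of 18 tested factors of the senescence-associated secretory list, 8 were higher and 3 lower, with a median log2 fold change of 0.37. The shares over all genes tested were 25.5% higher and 27.1% lower. IL6 was read 246, 241 and 255 times in p27-positive libraries, against 113, 65 and 51 times in p27-negative libraries (1.62 ± 0.23, adjusted p = 7.6e-08). IGFBP7 (2.65 ± 0.19) and GDF15 (1.88 ± 0.13), which binds GFRAL and is also a p53 target, were higher. STC1 (-0.60 ± 0.04) and IGFBP3 (-0.76 ± 0.05) were among those lower. The list thus held genes on both sides.

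Markers of other cell types were measured beside these results. Of 10 leukocyte markers, 6 were in the table and 2 were tested, and their summed level was 0.926 to 1.82 FPKM in p27-positive and 0.452 to 0.987 FPKM in p27-negative libraries. ITGAM was higher (1.05 ± 0.36), a call lost in 5 settings, among them the fits without p27-positive replicate 1, p27-positive replicate 3 or p27-negative replicate 2, and CD3E, LYZ and TYROBP were not analysed here. PTPRC, the pan-leukocyte gene, had 15.8 normalized counts in p27-positive, against 24.2 in p27-negative cells. Epithelial markers summed to 1474 to 1509 FPKM in p27-positive and 823 to 845 FPKM in p27-negative libraries. Of the 6 tested, 4 were higher, EPCAM was lower (-0.30 ± 0.10, a call lost in 7 settings, among them the fits without p27-positive replicate 3, p27-negative replicate 1 or p27-negative replicate 2), KRT7 did not pass, and CDH1 was below the filter. The call of CLDN4 among the 4 was lost in 5 settings, among them the fits without p27-positive replicate 3 or p27-negative replicate 1. Mesenchymal markers summed to 24.7 to 26.2 FPKM in p27-positive and 30.5 to 33.7 FPKM in p27-negative libraries. Of the 4 tested, 3 were lower and 0 higher, or 2 lower and 0 higher with scaling to the library total. All 5 tested endothelial and stromal markers were higher: VWF (1.24), CDH5 (0.45), PDGFRB (1.80), COL1A1 (1.22) and COL3A1 (1.78). Their list summed to 59.8 to 63.5 FPKM in p27-positive and 25.6 to 26.0 FPKM in p27-negative libraries. PECAM1, another endothelial marker, was below the filter, and DCN and LUM, stromal markers of the list, were not analysed here. The counts of these marker lists stand beside 25.5% higher and 27.1% lower over all genes tested. The part of these markers, or of the lower MKI67, in the differences above was not tested.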

How the data were processed

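Poly(A) RNA libraries of sorted CAL-51 cells were made with a stranded kit, per the labels' protocols. The submitters' processing notes name build hg38 and the tools STAR, featureCounts and DESeq2. No source used here gives their versions, the annotation release or the strand setting. The authors deposited a signal table of DESeq2-normalized counts, that is, reads of a gene over the size factor of the library, per the file headers. The second deposited table holds FPKM, per the file headers, and it equalled the recovered reads per kilobase, scaled to the assigned reads of the library. All normalized counts (100%) were whole multiples of 1 step per library within 1e-06, so whole reads were recovered. Only genes with at least 10 reads in all are listed.

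The main test was limma 3.58.1 (R 4.3.3) with a trended prior (34.6 degrees of freedom), two-sided, on log2(normalized count + 1) over the 15950 genes with a mean of at least 10, with Benjamini-Hochberg adjustment over them. On the recovered reads edgeR 4.0.16 called 8290 genes and DESeq2 1.42.0 called 8174, against 8385 with limma. Alternatives were other pseudocounts, filters, scalings, tools, the FPKM table, the replicate number as a block and each library left out. No 2 libraries agreed within sampling noise (chi-square per degree of freedom of at least 5.11).

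The 10 genes and the lists were chosen with earlier results of these data known. Named genes are the 10, all listed subunits, IkB and feedback genes, CXC chemokines and chemokine receptors. Per other list they are up to 4 genes with the smallest p and those that fell. VWF, CDH5, PDGFRB, COL1A1, COL3A1, IRAK2, TICAM1, BIRC3, IKBKE, IKBKB, ICAM1, IL6, IL1RAP, TLR2, TLR3, LINC00677, WAKMAR2 and MTHFD2L were named after their values were seen. RefSeq windows are of GRCh38.p14. Some listed genes are not reported by name here.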

Additional observations from a re-analysis of the deposited data

How the results depend on the processing

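CXCL1, CXCL3, CXCL8, TNFAIP2, TNFAIP3 and NFKBIA kept their direction and their call under all 18 alternatives, and CXCL2 under 17, since with a minimum mean of 50 it was not tested. The number of the 10 genes called lower was 0, in place of 1, with quantile normalization, with upper-quartile rescaling, with scaling to the library total, in the FPKM table and with no trended prior, and 0 to 1 with 1 library left out, which is the loss of NFKBIE. Over all genes, the FPKM table called 2832 genes lower, against 4318. NFKB2, never past the threshold when a library was left out, had log2 fold changes of -0.057 to 0.044 in those fits, below 0 without p27-positive replicate 2 (-0.0069), p27-positive replicate 3 (-0.0068) or p27-negative replicate 2 (-0.057). With the replicate number as a block (replicate block), which the labels do not explain, 8395 genes were called, against 8385, and the 10 genes gave 7 higher and 1 lower as before. Same-numbered libraries of the groups did not deviate together (r of -0.000512 to 0.0106), so the numbers were not taken to pair them. The causes of these changes were not tested. Depth limits CXCL2, CXCL5 and CXCL6, whose p27-negative libraries held 0 to 15 reads.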
